A study of Mus musculus with 20 samples.

Results

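The genes of autophagy described here are 10 core genes measured by RNA sequencing in the mouse abdominal aorta. They are the starter kinase Ulk1, the nucleation factor Becn1, the enzymes Atg5, Atg7 and Atg4a, the ATG8 family genes Map1lc3a, Map1lc3b, Gabarap and Gabarapl1, and the cargo receptor Sqstm1. They were listed by name and not by their values, and they are 10 of 12635 genes tested. Of their 73 transcripts in the GENCODE M21 annotation, 33 are listed in at least 1 deposited table, 30 of them for all the libraries compared. All 10 genes passed the filter of a mean of at least 1 FPKM, a level of fragments corrected for transcript length and library size.

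Of the 4 groups, 3 were compared, each with 5 libraries. KO Ang II libraries come from mice labelled KO that received angiotensin II (Ang II), the hormone that constricts arteries, at 500 ng per kg per min. WT Ang II libraries come from wild-type mice given the same dose, and WT saline libraries from wild-type mice given saline. DAPK1, the kinase named in the series title, is activated by calcium and calmodulin. The sources used here do not give the KO allele, the tissue in which it acts, the strain, sex and age of the mice or the length of the infusion. Each library is named by its title, which ends in a number that differs in every library and is read here as the animal's. No label states that it is, so p-values measure the spread between these libraries. Within a group, values are listed in the order KOAng_II402, KOAngII537, KOAngII560, KOAngII612, KOAngII628, then WTAng_II519, WTAng_II536, WTAngII568, WTAngII580, WTAngII581, then WTNS_369, WTNS_373, WTNS_523, WTNS_547, WTNS_550. The KO saline group is not analysed here, because none of the 2025 transcripts in its table belongs to the 10 genes.

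Depth, recovered from the steps in the values, was 59.0 to 74.4 megareads per library, so that 1 read on a transcript of 1 kb was worth 0.0134 to 0.0170 FPKM. Smooth muscle markers were high in every library, with a summed level over 5 of 5 genes of 5221 to 9535 FPKM in KO Ang II, 6601 to 13774 in WT Ang II and 5440 to 12262 in WT saline. Transcripts of 9 intestinal genes summed to 28.4 to 68.6 FPKM in KO Ang II and to 23.1 and 20.5 FPKM in WTAngII580 and WTAngII581, while all 9 were listed at 0 in the other 3 WT Ang II and the 5 WT saline libraries. Dapk1 summed to 4.997 to 13.8 FPKM in KO Ang II, 3.96 to 19.9 in WT Ang II and 9.48 to 15.4 in WT saline. Its groups overlapped, and the values do not check the KO label, since the sources used here do not say which part of the gene is deleted.

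In autophagy a cell wraps part of its own content in a growing membrane, closes it into an autophagosome and delivers it to the lysosome. The ULK1 kinase starts the process, and Beclin 1, coded by Becn1, sits in the lipid kinase complex that marks the membrane. ATG4 proteases cut the tail of each ATG8 protein behind a glycine, and ATG7 and the ATG5 complex then join that glycine to the lipid phosphatidylethanolamine. SQSTM1, also called p62, brings ubiquitin-tagged cargo to the lipid-bound ATG8 proteins and is itself degraded with it. The activity of the pathway is usually read from proteins, through lipid-bound LC3 and the loss of p62, which RNA levels do not measure. In smooth muscle cells of arteries autophagy is known to bear on survival and on the contractile state, and in human cells DAPK1 is known to phosphorylate Beclin 1.

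The ATG8 genes are shown by the end of their coding sequences, where the site that ATG4 proteases act on lies, because the genes are close relatives whose reads must be told apart. The sequences were read from the GENCODE M21 transcripts ENSMUST00000029128, ENSMUST00000034270, ENSMUST00000018711 and ENSMUST00000032264 (GRCm38, all on the plus strand). They run 5′ to 3′ to the stop codon, and capitals mark the last glycine codon in frame.
Map1lc3a, chr2:155277602-155277637: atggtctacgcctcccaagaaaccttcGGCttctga
Map1lc3b, chr8:121596723-121596770: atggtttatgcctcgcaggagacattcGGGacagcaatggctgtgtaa
Gabarap, chr11:69994489-69994524: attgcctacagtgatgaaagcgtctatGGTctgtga
Gabarapl1, chr6:129541132-129541167: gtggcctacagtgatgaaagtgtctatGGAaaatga
The glycine is codon 120 in both LC3 genes and codon 116 in both GABARAP genes. It is followed by 5 codons before the stop in Map1lc3b and by 1 in each of the other 3. Over the aligned coding bases Map1lc3a and Map1lc3b were 77.6% identical and Gabarap and Gabarapl1 74.6%, against 57.1% to 64.1% between the LC3 and GABARAP genes. The longest run that any pair shared was 17 bases, in Gabarap and Gabarapl1.

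No autophagy gene passed the test in any of the 3 comparisons, and in none did the groups separate for any of the 10. The test was limma on log2(FPKM + 1) over all 12635 genes, with Benjamini-Hochberg adjustment. In KO Ang II versus WT Ang II, 0 of 10 passed (0% of all genes), 1 had an unadjusted p under 0.05 (7.95% of all genes) and 0 had groups that did not overlap (1.12% of all genes). In WT Ang II versus WT saline the counts were 0 of 10 (0% of all genes), 1 (4.88%) and 0 (0.997%). In KO Ang II versus WT saline, 0 of 10 passed (0.103% of all genes), 0 had an unadjusted p under 0.05 (8.38%) and 0 did not overlap (1.83%). Of the 13 genes that passed among all genes in that comparison, 9 were the intestinal genes. Those 9 were listed with earlier results of these data known, so this count and their signs given below are a description. Limma with voom weights on reads recovered from the values also called 0 of the 10 in each comparison.

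The median difference over the 10 genes was small in the comparisons that involve WT Ang II. It was 0.056 in KO Ang II versus WT Ang II, beside -0.0076 over all genes, with 6 differences positive (48.6% of all genes). In WT Ang II versus WT saline it was 0.0077, beside 0.0143 over all genes, with 5 positive (52.6% of all genes). In KO Ang II versus WT saline it was 0.33, beside 0.016 over all genes, with 7 positive (52.6% of all genes). The comparisons share libraries, so their values are not independent. In RNA from whole tissue, fewer cells of a type and less RNA per cell cannot be told apart.

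**Figure D1:**
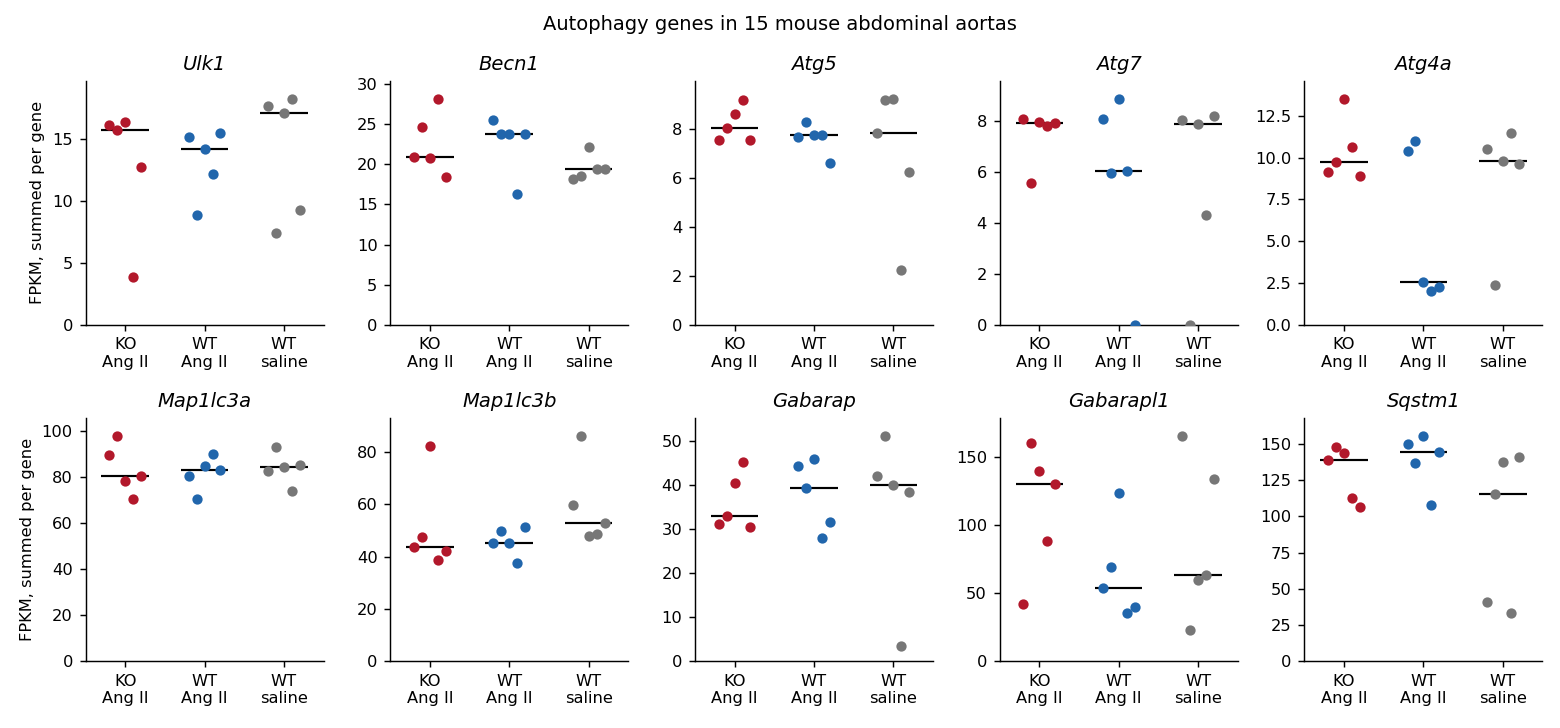
FPKM summed per gene (vertical axes, from 0) in each of 15 libraries for the 10 autophagy genes, with KO Ang II, WT Ang II and WT saline from left to right; each point is 1 library and each bar the group's median. The groups overlap in every gene, and single libraries lie far from their group, such as Gabarap at 3.38 FPKM in WTNS_547.

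The 10 genes covered a range of levels, with Sqstm1 at the top of the order by mean and Atg4a, Atg5 and Atg7 at the bottom. Mean FPKM over the 15 libraries were 121 for Sqstm1, 88.6 for Gabarapl1, 82.8 for Map1lc3a, 51.9 for Map1lc3b, 36.2 for Gabarap, 21.6 for Becn1, 13.4 for Ulk1, 8.26 for Atg4a and 7.57 for Atg5. Atg7, which is listed at 0 in some libraries, is given by library below, and its median over the 15 libraries was 7.90 FPKM beside 7.75 for Atg5. Becn1 lay above Ulk1 in 15 of 15 libraries. Map1lc3a exceeded Map1lc3b in 14 of 15, Map1lc3b exceeded Gabarap in 13, Gabarap exceeded Becn1 in 14 and Ulk1 exceeded Atg4a in 12. Sqstm1 exceeded Gabarapl1 in 11 of 15, Atg5 exceeded Atg7 in 8 and Gabarapl1 exceeded Map1lc3a in 7, so the order of these neighbours varied between libraries. Atg4a exceeded Atg5 in 11, and the exceptions are the libraries, named below, in which the coding Atg4a transcript is listed at 0. The Atg4a mean includes those libraries, and its median over the 15 was 9.73 FPKM.

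The genes also differed in how steady they were between animals of a group. Map1lc3a had a mean within-group coefficient of variation of 9.87%, lower than all but 4.44% of the genes tested, whose median was 28.02%. Becn1 had one of 13.7%, and Gabarapl1 one of 54.3%, higher than 84.7% of the genes tested. The order of the 10 differs between groups: in WT Ang II alone the coefficient was 81.5% for Atg4a and 55.2% for Gabarapl1.

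Ulk1 codes for the kinase at the start of the pathway (ENSMUSG00000029512.11, chromosome 5, 110784488 to 110810097, minus strand). Its FPKM were 16.1, 15.8, 16.4, 3.88 and 12.8 in KO Ang II, 15.2, 8.91, 14.2, 12.2 and 15.5 in WT Ang II, and 17.7, 7.42, 17.2, 18.3 and 9.27 in WT saline. The lowest value belonged to KOAngII612, and each group held values from near the top of the range. The difference was -0.13 (95% confidence interval -0.87 to 0.61) in KO Ang II versus WT Ang II and -0.02 (-0.76 to 0.72) in WT Ang II versus WT saline.

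Becn1 (ENSMUSG00000035086.13, chromosome 11, 101285952 to 101302286, minus strand) had a steady sum. Its FPKM were 20.9, 24.6, 20.7, 28.2 and 18.4 in KO Ang II, 25.6, 23.8, 23.8, 16.3 and 23.8 in WT Ang II, and 18.1, 18.5, 22.2, 19.5 and 19.4 in WT saline. In WT Ang II 4 of 5 libraries lay above all WT saline libraries, and WTAngII580 lay below them. The difference was -0.0039 (-0.29 to 0.28) in KO Ang II versus WT Ang II and 0.19 (SE 0.13, adjusted p = 0.940) in WT Ang II versus WT saline. The KO Ang II sums include ENSMUST00000041403 and ENSMUST00000140706, which have no listed WT value and reached 2.37 and 1.55 FPKM in a KO Ang II library.

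Of the transcripts that make up the Becn1 sum, some varied far more than the sum, while ENSMUST00000136535 kept to 1.05 to 1.89 FPKM over the 15 libraries. The coding transcript ENSMUST00000130916 had 8.79, 3.87, 8.17, 1.44 and 9.91 FPKM in KO Ang II, 1.96, 1.91, 3.07, 8.12 and 0.777 in WT Ang II, and 2.62, 6.69, 7.71, 3.08 and 8.39 in WT saline. ENSMUST00000122817, annotated as keeping an intron, had 2.72, 15.6, 4.90, 19.1 and 3.31 in KO Ang II, 20.5, 17.1, 14.9, 1.44 and 19.0 in WT Ang II, and 1.90, 5.85, 8.71, 2.505 and 5.82 in WT saline. Where the coding transcript was low, the other tended to be high. Over the 15 libraries Pearson's r between their FPKM was -0.72 (permutation p = 0.00431, adjusted p = 0.0172 over 4 such pairs). Spearman's rho was -0.63 (permutation p = 0.0136, adjusted p = 0.0543). Without the 2 libraries farthest from the median r was -0.67. Both transcripts are parts of a steady sum, which by itself makes a negative r likely. The permutation treats them as independent, so its p cannot set the relation apart from that. The pair shares 46.5% of the bases of the coding transcript and 76.2% of those of ENSMUST00000122817, so reads over these bases do not tell the pair apart, and the split between them is the authors' estimate.

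ENSMUST00000122817 carried 60.7% ± 29.8 of the Becn1 sum in WT Ang II and 24.9% ± 12.6 in WT saline (SD, n = 5 each). By an exact two-sided permutation test the difference of 35.8 percentage points had p = 0.0476 and an adjusted p of 0.763 over 57 tests of shares. Of those 57 tests over 19 transcripts, 3 had an unadjusted p under 0.05 and 0 passed when adjusted, and the smallest p that 5 against 5 libraries allow is 0.00794. Both Atg4a shares are among the 3 and mirror each other, so they repeat a single result. The shares of Map1lc3a and of Gabarap also mirror each other, so the 57 tests are not all distinct. As a single transcript ENSMUST00000122817 differed by 1.21 (SE 0.64, adjusted p = 0.941). Another Becn1 transcript with a kept intron, ENSMUST00000139997, differed by -1.20 in the same comparison (SE 0.44, unadjusted p = 0.0159, adjusted p = 0.840). Its 2 highest values were 10.7 FPKM in WTNS_369 and 10.2 in WTNS_547.

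**Figure D2:**
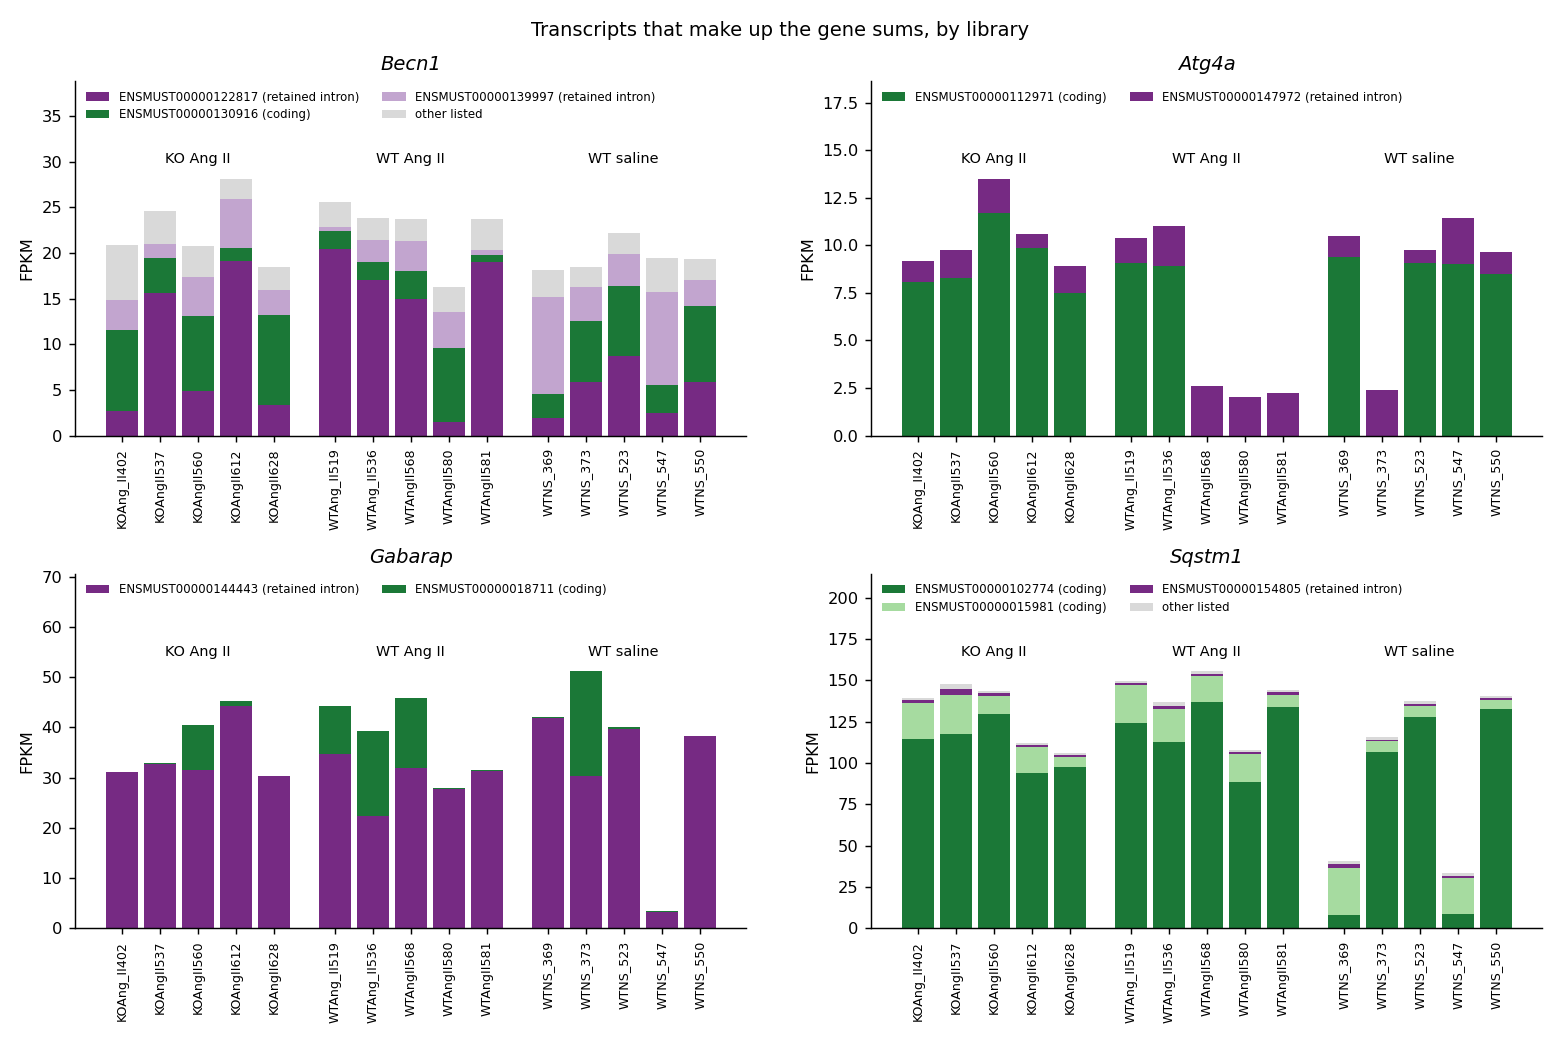
FPKM (vertical axes) of the listed transcripts of Becn1, Atg4a, Gabarap and Sqstm1, stacked for each of the 15 libraries, with KO Ang II, WT Ang II and WT saline from left to right. Green marks coding transcripts, purple those with a kept intron and grey the remaining listed ones; the coding Atg4a transcript is missing from 4 bars, and the main Sqstm1 transcript is low in WTNS_369 and WTNS_547.

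Atg5 codes for a part of the complex that joins ATG8 proteins to lipid (ENSMUSG00000038160.7, chromosome 10, 44268358 to 44364291, plus strand). Its single listed transcript had 7.54, 8.02, 8.58, 9.17 and 7.52 FPKM in KO Ang II, 7.67, 8.28, 7.74, 7.75 and 6.60 in WT Ang II, and 7.84, 9.17, 9.21, 2.24 and 6.22 in WT saline. WTNS_547 was low, and the other 14 libraries lay close together. The difference was 0.09 (-0.44 to 0.62) in KO Ang II versus WT Ang II and 0.22 (-0.31 to 0.76) in WT Ang II versus WT saline, and without WTNS_547 the second was -0.07.

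Atg7 codes for the activating enzyme of the same reaction (ENSMUSG00000030314.16, chromosome 6, 114643097 to 114860614, plus strand). Its single listed transcript, ENSMUST00000032457, had 8.08, 5.56, 7.98, 7.81 and 7.92 FPKM in KO Ang II, 8.10, 5.97, 8.87, 6.03 and 0 in WT Ang II, and 8.05, 0, 7.90, 4.31 and 8.22 in WT saline. It was listed at 0 in WTAngII581 and WTNS_373, and the 13 other libraries held 1059 to 2262 reads. No mean is given for that reason, and no difference passed (limma, adjusted p = 0.768 to 0.996).

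Atg4a codes for a protease that trims ATG8 tails (ENSMUSG00000079418.3, chromosome X, 140956907 to 141164270, plus strand). Its FPKM were 9.16, 9.73, 13.5, 10.6 and 8.91 in KO Ang II, 10.4, 11.005, 2.59, 2.05 and 2.26 in WT Ang II, and 10.5, 2.38, 9.77, 11.5 and 9.63 in WT saline. All KO Ang II libraries were high, WT Ang II fell into 2 high and 3 low libraries, and WT saline had 1 low library. The difference was 1.04 in KO Ang II versus WT Ang II (SE 0.44, 95% confidence interval 0.11 to 1.98), with an unadjusted p of 0.0316 and an adjusted p of 0.620. The groups overlap, since WTAng_II519 and WTAng_II536 lay within the KO Ang II range. It was -0.70 in WT Ang II versus WT saline (SE 0.44, adjusted p = 0.940) and 0.34 in KO Ang II versus WT saline (SE 0.44, adjusted p = 0.889).

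The low Atg4a sums came from a single transcript. The coding ENSMUST00000112971 was listed at 0 in WTAngII568, WTAngII580, WTAngII581 and WTNS_373, and had 7.48 to 11.7 FPKM, or 1159 to 1874 reads, in the 11 other libraries. No library lay in between. ENSMUST00000147972, a short transcript with a kept intron near the end of the gene, was present in all 15 libraries, at 0.743 to 1.78 FPKM in KO Ang II, 1.34 to 2.59 in WT Ang II and 0.695 to 2.42 in WT saline. It held 104 to 122 reads in the 4 libraries with the coding transcript at 0. In the 11 others it held 32 to 90 reads, apart from 110 in WTNS_547. Among the 7 libraries with intestinal transcripts, which are the 5 KO Ang II libraries and WTAngII580 and WTAngII581, Atg4a passed with a difference of 1.84 (limma, adjusted p = 0.0487); both WT libraries left there are among the 4 listed at 0. The 4 comprise 2 libraries with intestinal transcripts and 2 without.

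A listed 0 for an otherwise abundant transcript occurred beyond these genes. Of 7880 annotated transcripts with a mean of at least 5 FPKM, 5.03% were listed at 0 in at least 1 of the 15 libraries, as were 2 of the 14 such transcripts of the autophagy genes. Among gene sums with that mean the share was 0.854%. Transcripts that the authors assembled themselves carry no gene name in the tables and are outside these sums. Whether a listed 0 reflects missing RNA or the assignment of reads to another transcript was not tested.

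Map1lc3a codes for LC3A (ENSMUSG00000027602.9, chromosome 2, 155276297 to 155278073, plus strand). It had the lowest coefficient of variation of the 10 averaged over the groups, at 89.3, 97.8, 78.1, 70.3 and 80.2 FPKM in KO Ang II, 80.2, 70.6, 84.7, 89.8 and 82.996 in WT Ang II, and 82.5, 92.8, 84.1, 73.8 and 84.95 in WT saline. The groups shared nearly the whole range. The difference was 0.02 (-0.21 to 0.25) in KO Ang II versus WT Ang II, -0.03 (-0.27 to 0.20) in WT Ang II versus WT saline and -0.01 (-0.25 to 0.22) in KO Ang II versus WT saline. These intervals are the narrowest of the 10 genes.

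Map1lc3b codes for LC3B, the form most often followed in blots (ENSMUSG00000031812.16, chromosome 8, 121590361 to 121598760, plus strand). Its FPKM were 43.7, 47.3, 82.4, 38.8 and 42.2 in KO Ang II, 45.3, 49.9, 45.4, 37.5 and 51.2 in WT Ang II, and 59.6, 86.2, 47.7, 48.5 and 53.0 in WT saline. KOAngII560 and WTNS_373 stood far above the rest. The difference was 0.10 in KO Ang II versus WT Ang II (SE 0.20, adjusted p = 0.899) and -0.33 in WT Ang II versus WT saline (SE 0.20, adjusted p = 0.940). The coding transcript ENSMUST00000034270, which ends in the sequence printed above, made up most of the sum, with a mean of 45.01 FPKM over the 15 libraries.

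Gabarap codes for a member of the other ATG8 branch (ENSMUSG00000018567.14, chromosome 11, 69991143 to 69994951, plus strand). Its FPKM were 31.1, 32.9, 40.4, 45.3 and 30.4 in KO Ang II, 44.3, 39.2, 45.9, 27.9 and 31.5 in WT Ang II, and 42.1, 51.1, 40.02, 3.38 and 38.3 in WT saline. WTNS_547 lay far below the 14 other libraries. The difference was -0.06 (-1.17 to 1.05) in KO Ang II versus WT Ang II and 0.47 (-0.64 to 1.58) in WT Ang II versus WT saline, and without WTNS_547 the second was -0.20.

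Most of the Gabarap sum was listed under a transcript that does not code for the protein. ENSMUST00000144443, which keeps an intron, had a mean of 31.4 FPKM, and the coding ENSMUST00000018711 one of 4.84. The coding transcript had 0.0317, 0.0724, 8.89, 0.987 and 0.189 FPKM in KO Ang II, 9.58, 16.9, 14.0, 0.229 and 0.203 in WT Ang II, and 0.140, 20.8, 0.280, 0.249 and 0.143 in WT saline. It exceeded 8 FPKM in 5 libraries, 3 of them WT Ang II, and was below 1 FPKM in the 10 others. The difference in this transcript was -1.47 in KO Ang II versus WT Ang II (SE 1.03, adjusted p = 0.773). The pair shares 58.8% of the coding transcript's bases and 85.2% of those of ENSMUST00000144443. Pearson's r between the FPKM of the pair was -0.13 (permutation p = 0.642).

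Gabarapl1, the closest relative of Gabarap among the 4 (ENSMUSG00000030161.8, chromosome 6, 129533160 to 129542346, plus strand), had the highest of the 10 coefficients of variation averaged over the groups, though not the highest SE on the log2 scale, which was 0.66 for Atg7 and 0.51 for Gabarapl1. Its FPKM were 42.1, 160.2, 140.1, 88.2 and 130.02 in KO Ang II, 54.2, 69.0, 123, 35.5 and 39.8 in WT Ang II, and 166, 23.1, 59.8, 63.4 and 134 in WT saline. Each group held both low and high libraries. The mean was 112 ± 47.1 FPKM in KO Ang II, 64.4 ± 35.6 in WT Ang II and 89.2 ± 58.6 in WT saline (SD, n = 5 each). KO Ang II versus WT Ang II gave a difference of 0.80 (SE 0.51, 95% confidence interval -0.29 to 1.89, adjusted p = 0.656). The WT sums of Gabarapl1 include ENSMUST00000204639, which has no listed KO Ang II value and reached 2.27 FPKM in a WT library. Brown adipocyte markers, 6 of 6 listed, had sums of 335 to 2347 FPKM in KO Ang II libraries and of 138 to 2355 in WT Ang II libraries. In WT Ang II the highest of these sums, 2355 in WTAngII580, went with the lowest Gabarapl1 value, 35.5 FPKM. The highest in WT saline, 3077 in WTNS_373, also went with the lowest Gabarapl1 value, 23.1 FPKM. In KO Ang II the highest, 2347 in KOAngII628, went with a Gabarapl1 value of 130.02 FPKM. Sympathetic neuron markers, 7 of 7 listed, had sums of 3.55 to 761 FPKM in KO Ang II libraries and of 0.0800 to 113 in WT Ang II libraries. The groups overlap for both lists. Differences in KO Ang II versus WT Ang II were positive for all 6 and all 7 of these genes, for 5 of 5 white adipocyte, 5 of 5 Schwann cell and 9 of 9 intestinal markers, for 3 of 6 macrophage, 1 of 5 smooth muscle and 1 of 4 endothelial markers, and for 0 of 4 fibroblast, 0 of 5 skeletal muscle and 0 of 3 erythroid markers. No marker passed, and their part in the Gabarapl1 values was not tested.

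Sqstm1 codes for the cargo receptor p62 (ENSMUSG00000015837.15, chromosome 11, 50199366 to 50210827, minus strand) and had the highest mean of the 10. Its FPKM were 139, 148, 144, 112 and 106 in KO Ang II, 149.7, 137, 156, 108 and 144 in WT Ang II, and 40.7, 116, 138, 33.3 and 141 in WT saline. WTNS_369 and WTNS_547 were low, while the 3 other WT saline libraries lay within the range of both Ang II groups. The mean was 129.8 ± 19.1 FPKM in KO Ang II, 139 ± 18.7 in WT Ang II and 93.5 ± 52.6 in WT saline (SD, n = 5 each). WT Ang II versus WT saline gave a difference of 0.80 (SE 0.35, 95% confidence interval 0.04 to 1.55), with an unadjusted p of 0.0412 and an adjusted p of 0.940. The differences in KO Ang II versus WT Ang II and versus WT saline were -0.10 (SE 0.35, adjusted p = 0.950) and 0.70 (SE 0.35, adjusted p = 0.648).

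A single transcript carried the low Sqstm1 values. The coding ENSMUST00000102774 had 8.19 FPKM in WTNS_369 and 8.88 in WTNS_547, against 93.7 to 129.6 in KO Ang II, 88.6 to 137 in WT Ang II and 107 to 133 in the other 3 WT saline libraries. The second coding transcript, ENSMUST00000015981, which has another coding length of 1212 bases against 1326, was at 28.1 and 21.4 FPKM in WTNS_369 and WTNS_547, and at 5.57 to 6.84 in the other WT saline libraries. Levels as high as in WTNS_547 also occurred in the Ang II groups. There ENSMUST00000015981 made up 15.4% of a sum of 149.7 FPKM in WTAng_II519 and 15.8% of one of 147.6 in KOAngII537. Its share of the sum ranged from 5.84% to 15.8% in KO Ang II and from 5.02% to 15.7% in WT Ang II. Across all 15 libraries Pearson's r between the FPKM of the pair was -0.52 (permutation p = 0.0430, adjusted p = 0.0859). Without WTNS_369 and WTNS_547 r was -0.15, so the relation rests on those libraries. The difference between WT Ang II and WT saline was 0.56 without WTNS_369 and 0.49 without WTNS_547. Macrophage markers, 6 of 6 listed, summed to 273 to 387.01 FPKM in WT Ang II and 189.7 to 267 in WT saline, and WTNS_369 and WTNS_547 had 201 and 236; the part of macrophages in the Sqstm1 difference was not tested.

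**Figure D3:**
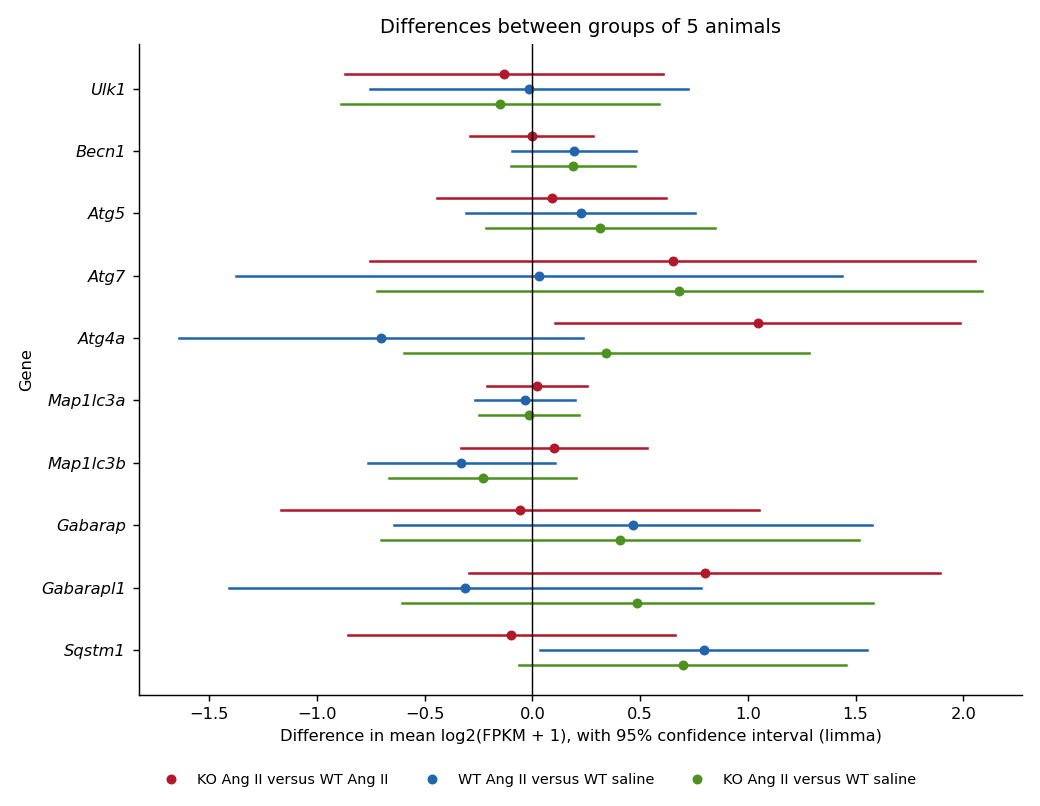
Differences between groups of 5 libraries in mean log2(FPKM + 1) for the 10 autophagy genes (horizontal axis), with 95% confidence intervals from limma, for KO Ang II versus WT Ang II (red), WT Ang II versus WT saline (blue) and KO Ang II versus WT saline (green). All intervals but those of Atg4a (red, 0.11 to 1.98) and Sqstm1 (blue, 0.04 to 1.55) include 0, and no difference passed after adjustment over all genes.

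Single transcripts gave no call either. Of the 22 autophagy transcripts tested among 29968, 0 passed in any comparison (0% of all transcripts passed in KO Ang II versus WT Ang II, 0.00667% in WT Ang II versus WT saline and 0.0434% in KO Ang II versus WT saline). Those with an unadjusted p under 0.05 numbered 1, 1 and 0 in that order (6.76%, 5.26% and 6.46% of all transcripts), namely ENSMUST00000112971 of Atg4a, with its listed zeros, and ENSMUST00000139997 of Becn1. The median difference of the 22 was 0.016, 0.15 and 0.074, beside -0.031, 0.012 and -0.011 over all transcripts.

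Autophagy genes beyond the 10 were taken from a list of 67 in 8 roles, from upstream regulators to the lysosome, and 65 of them were tested. None passed in any comparison. With an unadjusted p under 0.05 there were 7 in KO Ang II versus WT Ang II (10.8%, beside 7.95% of all genes), 3 in WT Ang II versus WT saline (4.62%, beside 4.88%) and 5 in KO Ang II versus WT saline (7.69%, beside 8.38%). The medians of the 65 differences were 0.028, -0.068 and -0.021. Atg9b, a relative of Atg9a, was not listed for both sets of tables, and Wdfy3, which codes for a large adaptor for aggregates, fell below the filter at a mean of 0.609 FPKM.

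Groups separated for 1 of the 65 in KO Ang II versus WT Ang II (1.54%, beside 1.12% of all genes) and for 1 in KO Ang II versus WT saline (1.54%, beside 1.83%), shares near those of all genes. In KO Ang II versus WT Ang II it was Snap29. Snap29, which codes for a SNARE protein of the fusion of autophagosomes with lysosomes, had 9.93 to 10.5 FPKM in KO Ang II and 7.63 to 9.33 in WT Ang II, a difference of 0.23 (SE 0.09, unadjusted p = 0.0214, adjusted p = 0.620). The WT saline libraries lay between and across them, at 8.25 to 9.99 FPKM. In KO Ang II versus WT saline it was Atg4b. Atg4b, which codes for the most active of the ATG4 proteases, had 11.9 to 14.8 FPKM in KO Ang II and 15.1 to 16.1 in WT saline, a difference of -0.23 (SE 0.10, unadjusted p = 0.0340, adjusted p = 0.555). In WT Ang II Atg4b ranged over both, at 12.5 to 17.5 FPKM.

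The most abundant genes of each role gave the scale on which the 10 sit. Ctsd, a lysosomal protease gene, had a mean of 325 FPKM over the 15 libraries, Lamp1, a lysosomal membrane protein gene, 271, and Rab7, a GTPase gene of late endosomes, 128. Bnip3, a receptor gene of mitophagy, had 70.03, Vamp8, a SNARE gene, 42.4, the ATG8 gene Gabarapl2 39.2 and the receptor gene Tax1bp1 37.2. The others with the highest means in their roles were Bcl2l1 at 27.5, Vmp1 at 25.2, Dapk3 at 19.3, Atg12 at 17.0, Atg13 at 16.2, Atg9a at 15.1, Ulk2 at 14.998, Pik3c3 at 11.1 and Rubcn at 10.3. Ctsd differed by 0.70 in KO Ang II versus WT Ang II (SE 0.27, unadjusted p = 0.0196, adjusted p = 0.620). Bcl2l1, whose product BCL-XL binds Beclin 1, differed by -0.66 in WT Ang II versus WT saline (SE 0.23, unadjusted p = 0.0133, adjusted p = 0.939) and by -0.68 in KO Ang II versus WT saline (adjusted p = 0.422).

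The other genes with an unadjusted p under 0.05 are given by role. Of 11 upstream regulators, 3 had one in KO Ang II versus WT Ang II (7.95% of all genes), and the differences of the 11 were positive in 4 and negative in 7. Foxo1 and Foxo3, which code for transcription factors that drive autophagy genes, differed by -0.52 (SE 0.16, adjusted p = 0.605) and -1.19 (SE 0.52, adjusted p = 0.620). Dapk2, a relative of Dapk1, differed by -0.58 (SE 0.18, adjusted p = 0.605). Ambra1, a Beclin 1 partner, differed by 0.58 (SE 0.27) and Ctsl, a lysosomal protease gene, by -0.32 (SE 0.14), each with an adjusted p of 0.620. Mitf, a relative of the lysosomal regulator Tfeb, differed by -0.42 in WT Ang II versus WT saline (SE 0.18, adjusted p = 0.940), as did Wipi2, which binds the lipid made by the Beclin 1 complex, with -0.45 (SE 0.19, adjusted p = 0.940). In KO Ang II versus WT saline Foxo1 differed by -0.49 (SE 0.16, adjusted p = 0.399), Dapk2 by -0.40 (SE 0.18, adjusted p = 0.584) and Mitf by -0.40 (SE 0.18, adjusted p = 0.585). With Atg4b and Bcl2l1, all 5 genes with an unadjusted p under 0.05 there had negative differences, as did 33 of the 65 tested. None of these passed, and they are named for their unadjusted p.

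**Figure D4:**
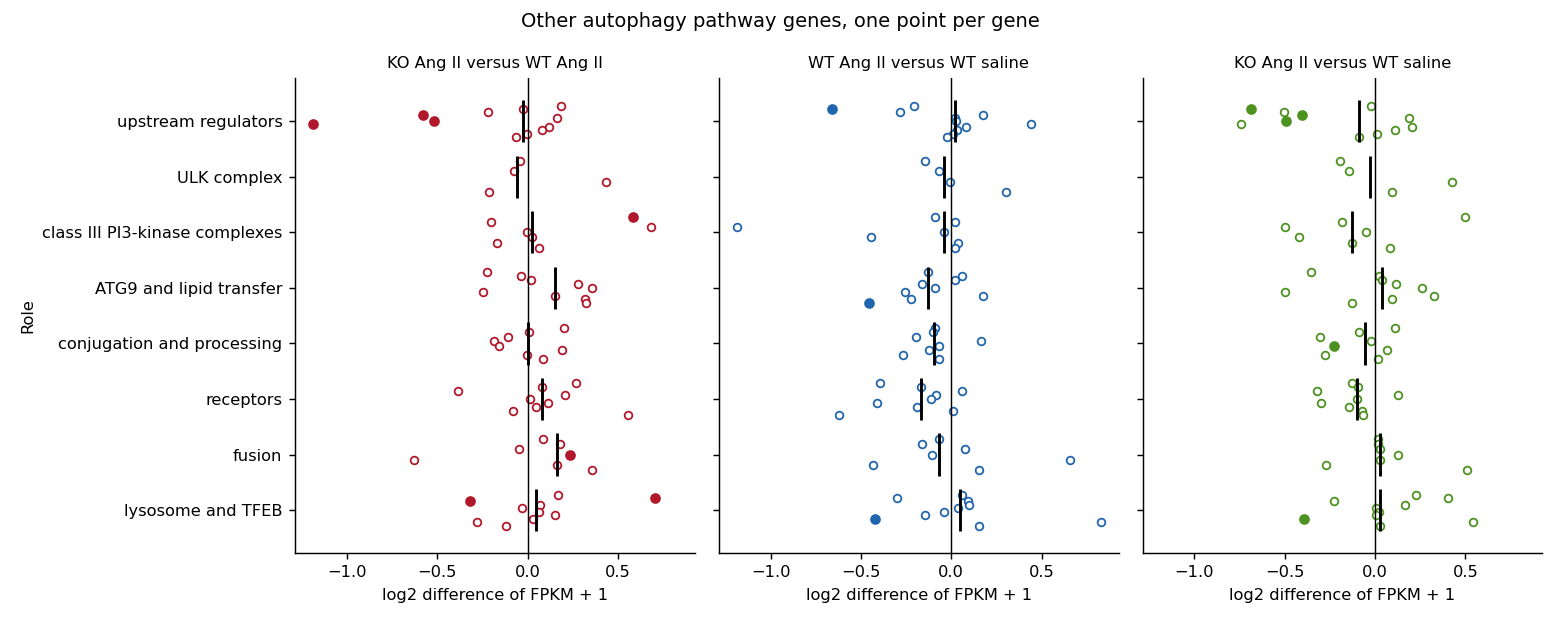
Differences in mean log2(FPKM + 1) (horizontal axes) of 65 other autophagy pathway genes in 8 roles, 1 point per gene, for KO Ang II versus WT Ang II, WT Ang II versus WT saline and KO Ang II versus WT saline. Filled points have an unadjusted p under 0.05 (7, 3 and 5 genes), black bars are the medians of each role, and points of every role lie on both sides of 0 in KO Ang II versus WT Ang II.

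Few of the 10 genes varied together across the 15 libraries. The closest pair was Atg5 and Gabarap, with a Pearson's r of 0.94 between log2 values, and r was 0.61 without the 2 libraries farthest from the median of Atg5 (WTNS_547 and WTNS_550) and 0.52 without those farthest from the median of Gabarap (WTNS_547 and WTAngII580). Genes whose pattern was most like Becn1 over the 15 libraries were Faf2 (r = 0.89, and 0.84 without the 2 libraries farthest from the median), Cd3eap (0.88) and Hmgb1-ps2 (0.87). For Map1lc3a they were Pgp (0.82), Pgrmc2 (0.80) and Ndufaf8 (0.79), for Gabarapl1 Trmt2a (0.81), Sirt4 (0.81) and Tldc1 (0.79), and for Atg4a Map3k5, Larp1 and Ate1 (0.80, 0.79 and 0.77). For Sqstm1 the nearest was Zfp952, with r = 0.94 and 0.50 without WTNS_547 and WTNS_369, so this likeness rests on those libraries. These are the highest values among the 12635 genes tested, with unnamed gene models passed over, and are given as a description.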

How the data were processed

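The deposited tables hold FPKM per transcript, as computed by the authors; the unit is read from the form of the values. The mm10 genome and the tools fastp, FastQC and bcl2fastq are named in the submitters' processing notes; the sources used here do not give the aligner or quantifier. Per the labels' protocols, TRIzol RNA went into NEBNext Ultra libraries.

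From these values, transcripts were named with GENCODE M21 and FPKM were summed per gene, with an unlisted transcript taken as 0. Genes listed for WT and for KO Ang II with a mean of at least 1 FPKM were tested with limma 3.58.1 (trend and robust options, R 4.3.3) on log2(FPKM + 1), a scale that understates changes of low genes. All 15 libraries were in 1 model, with a threshold of 0.05 on the Benjamini-Hochberg adjusted p over all genes. The script was tested on simulated data. Shares of transcripts were compared by exact permutation, and correlations used 100000 resamples. Depth came from the steps in the values, of which 98.7% to 99.1% lay within 0.05 reads of a whole number among values below 50 reads. Transcripts that the authors assembled took 12.2% to 15.8% of the summed FPKM and have no gene name. The genes described are the listed 10 and the pathway genes with separated groups or the 2 highest means of a role. Also described are the genes most like a member, up to 3 each, with unnamed gene models passed over. Those named for an unadjusted p were chosen after their values were seen. The genes and lists were chosen with earlier results of these data known. Alternatives were another pseudocount, filters, treatments of unlisted transcripts, scalings, weights, covariates, subsets of libraries, single transcripts and, added after the data were seen, voom on recovered reads. Sequences were read with Biopython 1.88.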

Additional observations from a re-analysis of the deposited data

Results flagged for a closer look

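A library far from the 4 others of its group was found in 5 of 30 groups of gene sums and in 8 of 66 groups of single transcripts (gap to the nearest over the range above 0.71). The same gap was found in 10.1% of such groups over all genes tested and in 13.1% over all transcripts tested, and for normally distributed values chance gives it in about 1 group in 20. Among gene sums these were Becn1 in WTAngII580 with 16.3 FPKM, Atg7 in KOAngII537 with 5.56 FPKM, Atg4a in WTNS_373 with 2.38 FPKM, Map1lc3b in KOAngII560 with 82.4 FPKM and Gabarap in WTNS_547 with 3.38 FPKM. Among transcripts, ENSMUST00000032457 of Atg7 had 5.56 FPKM in KOAngII537, and ENSMUST00000112971 of Atg4a was listed at 0 in WTNS_373. ENSMUST00000034270 of Map1lc3b had 75.0 FPKM in KOAngII560, and ENSMUST00000144443 of Gabarap had 44.3 FPKM in KOAngII612. The coding Gabarap transcript ENSMUST00000018711 had 8.89 FPKM in KOAngII560 and 20.8 FPKM in WTNS_373. ENSMUST00000204487 of Gabarapl1 had 2.21 FPKM in KOAng_II402, where the 4 other KO Ang II libraries are listed at 0, and ENSMUST00000154805 of Sqstm1 had 3.51 FPKM in KOAngII537.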

How the results depend on the processing

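Of 470 differences of the 10 genes recomputed under other settings, 469 stayed on the same side of the threshold. The exception was Atg4a in KO Ang II versus WT Ang II among libraries with intestinal transcripts, where 1 of the 10 genes passed, as 1 of 6 among all genes tested. Signs changed in 36 of the 470, all of differences that did not pass, and in 34 of 450 with 1 library left out, none of which passed. Leaving out 1 library gave 0 of the 10 genes in each comparison, 0 to 7 of all genes in KO Ang II versus WT Ang II (7 without WTAngII580 and 2 without WTAngII581), 0 to 1 in WT Ang II versus WT saline (1 without WTNS_550 or without KOAngII560) and 7 to 15 in KO Ang II versus WT saline (8 without WTNS_547 and 7 without KOAngII537). For single transcripts the ranges were 0 to 5, 0 to 5 and 1 to 15 in that order. In KO Ang II versus WT saline, 13 genes passed over all (9 of them intestinal), 30 with sample quality weights, 1 without the 4 libraries with most skeletal muscle marker RNA, and 0 with a filter of 5 FPKM, with marker means as covariates or without the animals numbered below 500. In WT Ang II versus WT saline, 2 passed without those 4 libraries, 2 among libraries without intestinal transcripts and 2 as single transcripts. With a pseudocount of 0.1 FPKM the transcripts that passed numbered 3 in KO Ang II versus WT saline and 2 versus WT Ang II. The causes were not tested. The scalings left the median of all genes between -0.084 and 0.066. No paired analysis was possible because the groups share no replicate numbers. With 5 libraries a group the intervals of the most variable genes are wide, such as -1.17 to 1.05 for Gabarap in KO Ang II versus WT Ang II. The model shares 1 estimate of the spread over the 3 groups, so that interval also carries the spread of WT saline. Coefficients of variation of Gabarap were 18.2% in KO Ang II, 20.8% in WT Ang II and 52.4% in WT saline. Those of Sqstm1 were 14.7%, 13.5% and 56.2%, and those of Atg5 8.68%, 8.11% and 41.8%, in that order.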
